A study of Homo sapiens with 6 samples.

Results

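The EGFR family consists of the receptors EGFR, ERBB2, ERBB3 and ERBB4, and its EGF-like ligands include AREG, EREG, TGFA, HBEGF, EGF and BTC. These 10 genes were chosen by Ensembl gene identifier, and 9 of them, 4 receptors and 5 ligands, had a probe set among the 26445 on the arrays. AREG, the ligand amphiregulin, had no row under its identifier and was not analysed here. Levels were measured in Clone 13, a single clone of the human colorectal cancer line SW480. Cells of this clone carry the tetracycline repressor and an untagged KIAA1199 construct, and were grown with blasticidin S and G418 in both groups. Doxycycline at 50 ng/ml was given for 48 hours to switch the construct on in the doxycycline group, and was not given to the uninduced group. The labels repeat the treatment text on the uninduced samples, so this division rests on the sample titles and on the methods, which name uninduced controls. For the dose, the methods give a range that begins at the value in the labels. Total RNA came from 3 independent experiments, and each of the 6 samples was hybridised to an Affymetrix Human Exon 1.0 ST array. No cells without the construct were exposed to doxycycline among these arrays, so effects of the drug and of KIAA1199 cannot be told apart in these data. The methods cite earlier array work in which such concentrations left transcript levels unaffected, and this was not tested here. The level of KIAA1199 and the epithelial markers of SW480 were not checked, because no table used here pairs their symbols with the identifiers. The study itself lists KIAA1199 among the genes raised by doxycycline, and shows its protein in this clone by Western blot.

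Receptors of this family sit in the cell membrane and form pairs with one another when a ligand binds, which starts signaling through the ERK and PI3K-AKT pathways. EGFR binds all of the ligands studied here, and HBEGF, BTC and EREG also bind ERBB4. ERBB2 has no known ligand of its own, and ERBB3, which binds neuregulins, has little kinase activity and signals through its partners. In colorectal cancer, EGFR is the target of therapeutic antibodies.

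Promoter sequences are shown for EGFR, the gene with the largest difference between the groups, for TGFA, the ligand with the largest difference, and for EREG, whose promoter holds other motifs. Each is the 250 bases before the gene's first listed start in RefSeq (GRCh38.p14), written 5′ to 3′ on the gene's strand. They lie at chr7:55018767-55019016, plus strand (EGFR), chr2:70553827-70554076, minus strand (TGFA) and chr4:74364895-74365144, plus strand (EREG). Capitals mark 3 motifs searched on both strands, which are the GC box, spelled GGGCGG, the TATA box, spelled TATAAA, and the CCAAT box.
EGFR: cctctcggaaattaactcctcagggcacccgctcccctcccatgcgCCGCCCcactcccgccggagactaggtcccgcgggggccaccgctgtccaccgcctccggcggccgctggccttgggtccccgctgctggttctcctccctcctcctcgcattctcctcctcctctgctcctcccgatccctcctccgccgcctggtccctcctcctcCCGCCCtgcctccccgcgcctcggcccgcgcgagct
TGFA: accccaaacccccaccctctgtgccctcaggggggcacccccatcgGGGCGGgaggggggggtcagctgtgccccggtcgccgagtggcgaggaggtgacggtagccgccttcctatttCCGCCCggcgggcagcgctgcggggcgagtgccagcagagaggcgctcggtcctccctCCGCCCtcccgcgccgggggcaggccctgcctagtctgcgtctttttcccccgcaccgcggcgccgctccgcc
EREG: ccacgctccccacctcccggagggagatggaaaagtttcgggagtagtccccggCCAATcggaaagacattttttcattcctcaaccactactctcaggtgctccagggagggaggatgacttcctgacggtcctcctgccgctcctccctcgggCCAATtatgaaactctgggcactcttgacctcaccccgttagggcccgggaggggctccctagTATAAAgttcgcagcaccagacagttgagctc

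The EGFR promoter held 2 GC boxes and a GC content of 73.6%, and the TGFA promoter held 3 GC boxes and a GC content of 75.6%, while neither held a TATA box. EREG, in contrast, had a TATA box that began 32 bases before the start, 2 CCAAT boxes, no GC box and a GC content of 58.0%. Of 35116 promoter windows of the same length, 42.6% held a GC box, 10.7% a TATA box and 32.0% a CCAAT box. The promoter table lists EGFR and TGFA with a second start each, and the second EGFR window held 2 TATA boxes and no GC box. HBEGF, whose window is not printed, held 5 GC boxes, no TATA box and a GC content of 76.4%, and its log2 fold change was 0.016. The ERBB4 window held 1 GC box and no TATA box, and its log2 fold change was 0.0060. The motifs are matches of letters, and binding at them was not measured. Whether motifs go with the differences was not tested. In the order of protein-coding genes on chromosome 4 of this assembly, EREG, AREG and BTC follow one another directly, whereas EGF lies elsewhere on the same chromosome.

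EGFR and ERBB3 were higher with doxycycline in each of the 3 experiments, by 1.22-fold and 1.18-fold, whereas ERBB2 and ERBB4 were not. The ligand EGF also rose in all 3, by log2 differences of 0.022 to 0.19, and so did 18.9% of all probe sets. Of the ligands, TGFA and EREG were higher with doxycycline in experiments 2 and 3 but not in experiment 1, and the log2 fold changes of HBEGF, EGF and BTC lay between -0.046 and 0.088. The study selected genes by an unadjusted p below 0.025 together with a minimum fold change of 1.2 upward or downward, and 1 of the 9 genes, EGFR, rose past these limits. In the same test, limma with the experiment as a block, 5.83% of all probe sets passed in either direction and 2.90% rose past the limits, so a count of 1 among 9 does not set the family apart from the background. EGFR was also the 1 gene of the 9 past the limits in the methods' paired test, run here on the deposited levels, in which 2.18% of all probe sets passed. The study's own list of selected genes, made from transcript clusters and not from these features, names none of the 9, so EGFR was not selected there. No gene of the 9 had a Benjamini-Hochberg adjusted p under 0.05 (0 of 9), and 2 of them, EGFR and ERBB3, had an unadjusted limma p under 0.05. The same held for the whole table, in which 0 of 26445 probe sets passed the adjusted limit although 12.3% had an unadjusted p under 0.05.

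EGFR (ENSG00000146648_at), the founding receptor of the family, had log2 levels of 8.333, 8.253 and 8.511 in the uninduced cells of experiments 1, 2 and 3, and of 8.565, 8.562 and 8.817 in the doxycycline cells. The lowest doxycycline level was 0.051 above the highest uninduced level, so the groups did not overlap, and 8.64% of all probe sets were separated in this direction. Both arrays of experiment 3 were the highest of their group. The means were 8.37 ± 0.13 (SD, n = 3) without and 8.65 ± 0.15 (SD, n = 3) with doxycycline. Within the experiments the level rose by 0.23, 0.31 and 0.31, with an SD of 0.044 that was smaller than the spread within either group. The log2 fold change was 0.28 (standard error 0.062, 95% interval 0.11 to 0.46), with an unadjusted p of 0.011 and an adjusted p of 0.35 from limma. An absolute difference of this size or larger was seen in 13.4% of all probe sets. An exact sign-flip permutation test over the 3 experiments gave a two-sided p of 0.25, the smallest it allows. Without the experiment as a block the limma p was 0.038, and it was between 0.035 and 0.060 when experiment 1, 2 or 3 was left out, so EGFR did not pass the limits in any of these 4 fits.

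ERBB3 (ENSG00000065361_at), the receptor with weak kinase activity, had log2 levels of 6.792, 6.751 and 7.015 in uninduced and of 7.001, 6.974 and 7.294 in doxycycline cells of experiments 1, 2 and 3. Its groups overlapped, since the uninduced array of experiment 3 lay above the doxycycline arrays of experiments 1 and 2. Within every experiment, however, the level was higher with doxycycline, by 0.21, 0.22 and 0.28. The log2 fold change of 0.24 (standard error 0.062, 95% interval 0.066 to 0.41) had an unadjusted p of 0.018 and an adjusted p of 0.36 from limma. ERBB3 was kept from the study's limits by its fold change of 1.18, which was under 1.2, while the p was under 0.025. The limma p of ERBB3 was 0.094 without the experiment as a block, and between 0.061 and 0.077 when experiment 1, 2 or 3 was left out, so it too was above 0.025 in these 4 fits.

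**Figure D1:**
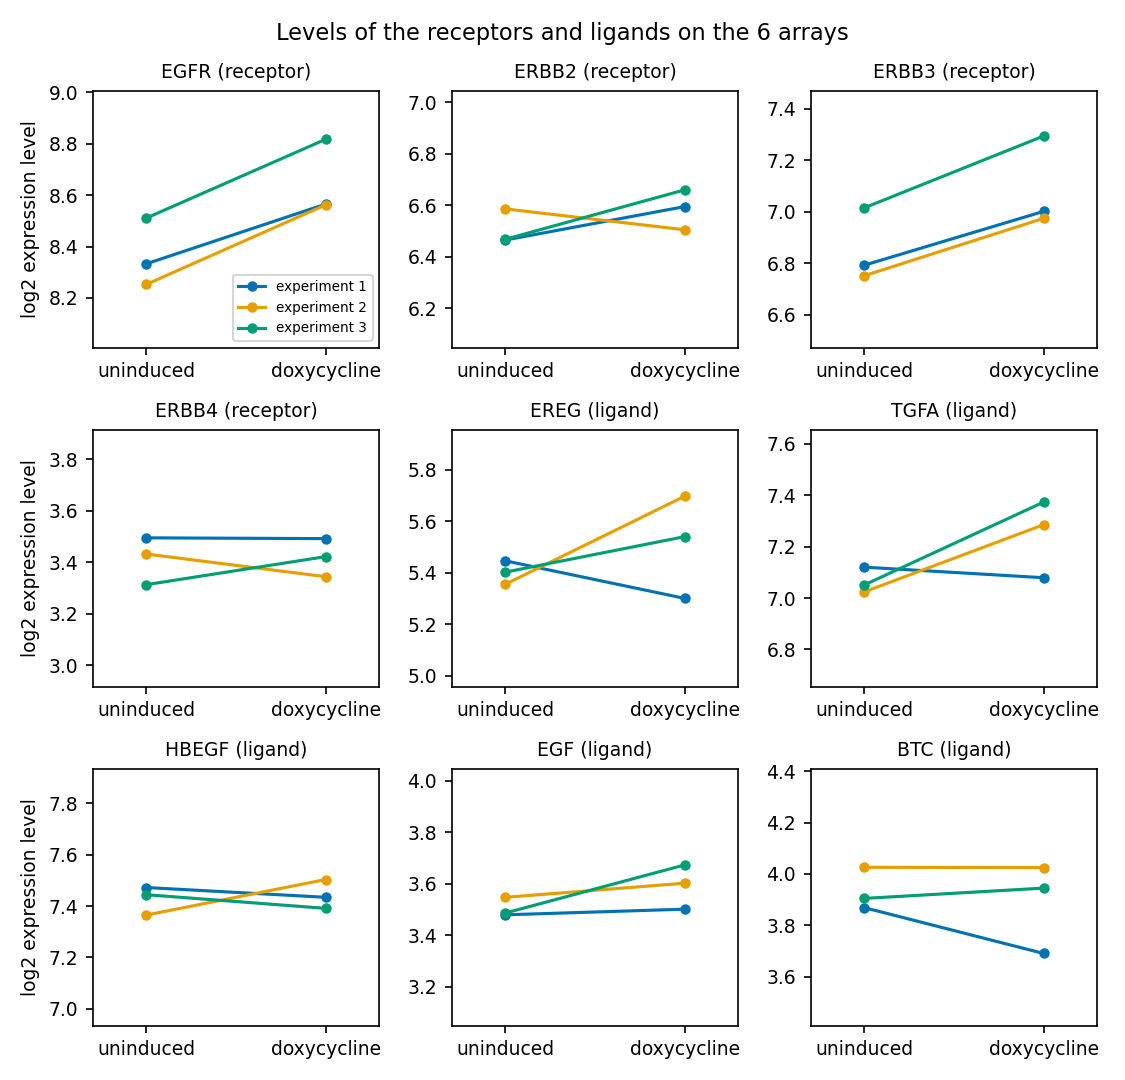
Log2 expression level (vertical axis, a span of 1 in every panel) of the 9 genes in uninduced and doxycycline cells, with 1 line per experiment. The lines of EGFR and ERBB3 rise in all 3 experiments with experiment 3 on top, whereas the lines of ERBB2, ERBB4, EREG, TGFA, HBEGF and BTC run in different directions and those of EGF rise by 0.022 to 0.19.

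ERBB2 (ENSG00000141736_at), the preferred partner of the other receptors, measured 6.465, 6.586 and 6.468 without and 6.595, 6.505 and 6.660 with doxycycline. It was higher with doxycycline in experiments 1 and 3 and lower in experiment 2, and the groups overlapped. With a 95% interval of -0.15 to 0.31, its log2 fold change of 0.080 had an adjusted p of 0.74 from limma. Leaving out experiment 2 gave 0.16 and leaving out experiment 3 gave 0.0245. ERBB4 (ENSG00000178568_at) measured 3.495, 3.432 and 3.313 without and 3.492, 3.344 and 3.422 with doxycycline, with overlapping groups. A log2 fold change of 0.0060 resulted (95% interval -0.19 to 0.21, adjusted p = 0.98 from limma). Its mean level lay above only 16.9% of the probe sets. At such low intensities arrays generally understate differences, which was not tested here.

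The log2 difference, doxycycline minus uninduced, of EGFR exceeded that of ERBB2 by 0.10, 0.39 and 0.11 in experiments 1, 2 and 3. ERBB2 itself was lower with doxycycline in experiment 2 (-0.081). Over ERBB3, the excess of EGFR was 0.023, 0.086 and 0.027. The 6 pairs of receptors were compared in this way. In every pair the difference kept its sign in all 3 experiments. The exact sign-flip permutation p was 0.25 for each, which is the smallest possible and remains 0.25 after adjustment over the 6 pairs. The pairs share 4 receptors, so their signs are not independent. The smallest difference in size was 0.007, for ERBB2 minus ERBB4 in experiment 2, where both receptors were lower with doxycycline. How often other pairs of probe sets keep their sign was not computed.

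Across the 6 arrays the levels of ERBB3 followed those of EGFR, with a Pearson r of 0.98 and a Spearman rho of 0.83. Of the 26443 other probe sets that varied between arrays, 0.337% had a higher r with EGFR, which put ERBB3 at rank 90. The arrays share their experiment and group, and 1260 probe sets had an r above 0.9, so a high r is common over 6 arrays. Experiment 3 was the highest of each group for both genes, and subtracting group means leaves such differences between experiments in. With the mean of each group subtracted the r was 0.99. Without the 2 arrays farthest from the median EGFR level, which keeps the uninduced array of experiment 3, the r was 0.93. For the r values of 0.99 and 0.93, the share of all probe sets with a higher one was not computed. Over all 6 arrays no other member came near the r of 0.98 of ERBB3. The next was TGFA with an r of 0.78, which was 0.21 without the 2 arrays farthest from the median EGFR level. The probe sets closest to EGFR could not be named.

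**Figure D2:**
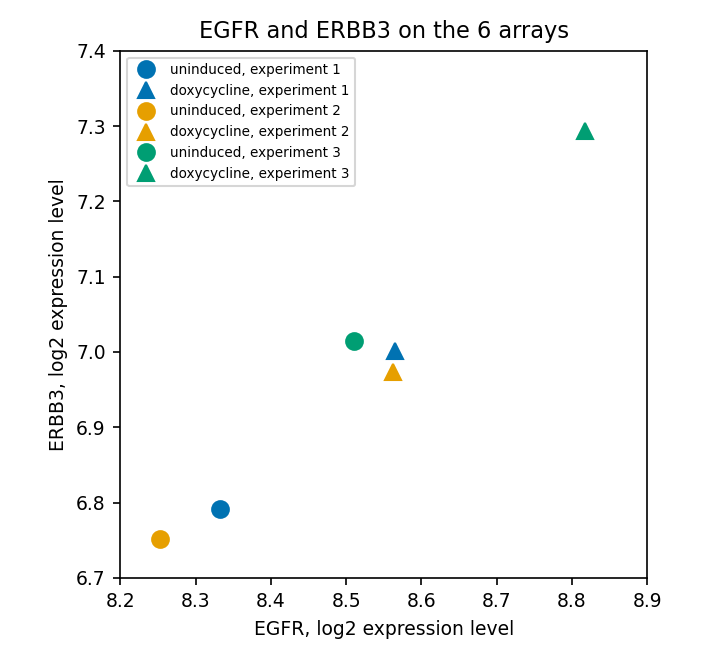
Log2 levels of EGFR (horizontal axis) and ERBB3 (vertical axis) on the 6 arrays, with circles for uninduced cells, triangles for doxycycline cells and 1 colour per experiment. The uninduced array of experiment 3 lies beside the doxycycline arrays of experiments 1 and 2, and the doxycycline array of experiment 3 is the highest for both genes.

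TGFA (ENSG00000163235_at), a ligand that acts on EGFR, measured 7.120, 7.024 and 7.051 in uninduced and 7.079, 7.285 and 7.373 in doxycycline cells. Its uninduced levels were close together (SD 0.050, n = 3), while with doxycycline experiment 1 stayed within the uninduced range and experiments 2 and 3 lay above it. Its log2 fold change was 0.18 (standard error 0.099, 95% interval -0.095 to 0.46), with an unadjusted p of 0.14 and an adjusted p of 0.54 from limma. Without experiment 1 it was 0.29, and without experiment 3 it was 0.11.

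EREG (ENSG00000124882_at), or epiregulin, measured 5.446, 5.355 and 5.402 without and 5.300, 5.697 and 5.540 with doxycycline. The doxycycline array of experiment 1 was the lowest of all 6 and that of experiment 2 the highest. Its log2 fold change of 0.11 (standard error 0.12, 95% interval -0.21 to 0.43) had the widest interval of the 9 genes, and an adjusted p of 0.74 from limma. The differences of the 3 experiments had an SD of 0.25.

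HBEGF (ENSG00000113070_at), which also serves as the receptor for diphtheria toxin, measured 7.472, 7.365 and 7.444 without and 7.434, 7.503 and 7.391 with doxycycline. Its ranges in the groups were nearly the same, and the log2 fold change was 0.016 (95% interval -0.19 to 0.22, adjusted p = 0.95 from limma). The mean level of HBEGF lay above 80.1% of the probe sets, and that of EGFR above 90.0%.

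EGF (ENSG00000138798_at), the ligand after which the family is named, measured 3.479, 3.547 and 3.486 without and 3.501, 3.602 and 3.673 with doxycycline. It was higher with doxycycline in all 3 experiments, by 0.022, 0.055 and 0.19, as were 18.9% of all probe sets. An adjusted p of 0.66 from limma belonged to its log2 fold change of 0.088 (95% interval -0.11 to 0.28). BTC (ENSG00000174808_at), or betacellulin, measured 3.869, 4.026 and 3.905 without and 3.691, 4.025 and 3.945 with doxycycline. It was the 1 gene of the 9 with a negative log2 fold change, -0.046 (95% interval -0.26 to 0.17, adjusted p = 0.84 from limma). The mean levels of EGF and BTC, like that of ERBB4, were in the lowest 25% of the probe sets, under a log2 level of 4.02.

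**Figure D3:**
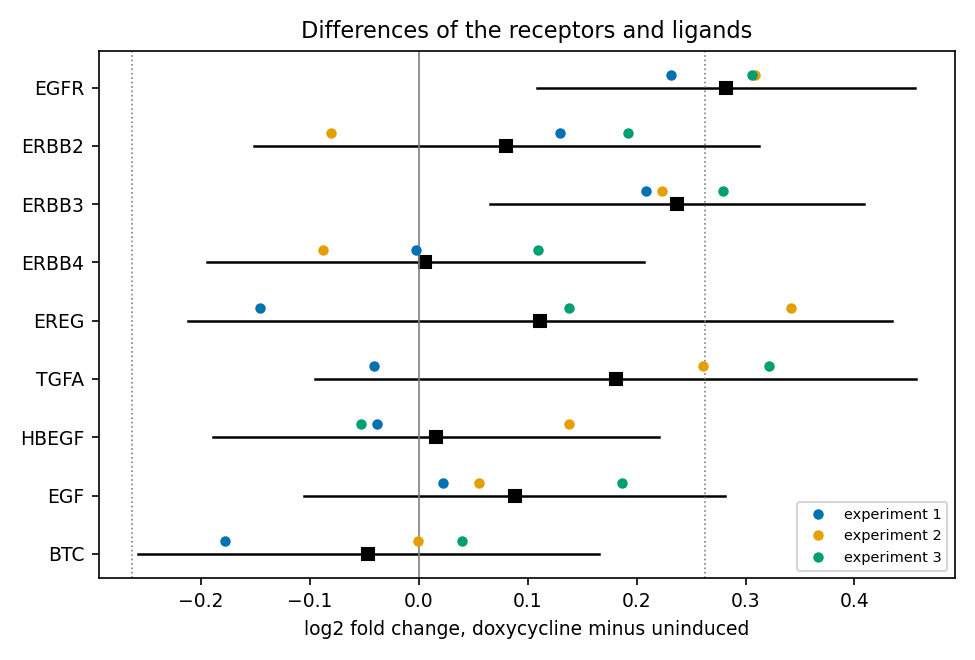
Log2 fold change, doxycycline minus uninduced (horizontal axis), of the 9 genes, with squares for the limma estimate, black lines for its 95% interval, coloured points for the 3 experiments and dotted lines at a fold change of 1.2 upward and downward. The intervals of EGFR and ERBB3 lie above 0 and the other 7 include it.

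The 9 genes together had a median log2 fold change of 0.088, against 0.0017 for all probe sets, and a median absolute log2 fold change of 0.088, against 0.10. Positive log2 fold changes were seen in 8 of the 9, against 50.5% of all probe sets. The experiments differed in this respect. In experiment 1, 3 of 4 receptors and 1 of 5 ligands were higher with doxycycline, in experiment 2 these were 2 of 4 and 4 of 5, and in experiment 3 they were 4 of 4 and 4 of 5. Over all probe sets, 49.1%, 51.0% and 51.2% were higher with doxycycline in experiments 1, 2 and 3. In extracts of whole cultures, a change in the share of cells that express a gene and a change in RNA per cell cannot be told apart.

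**Figure D4:**
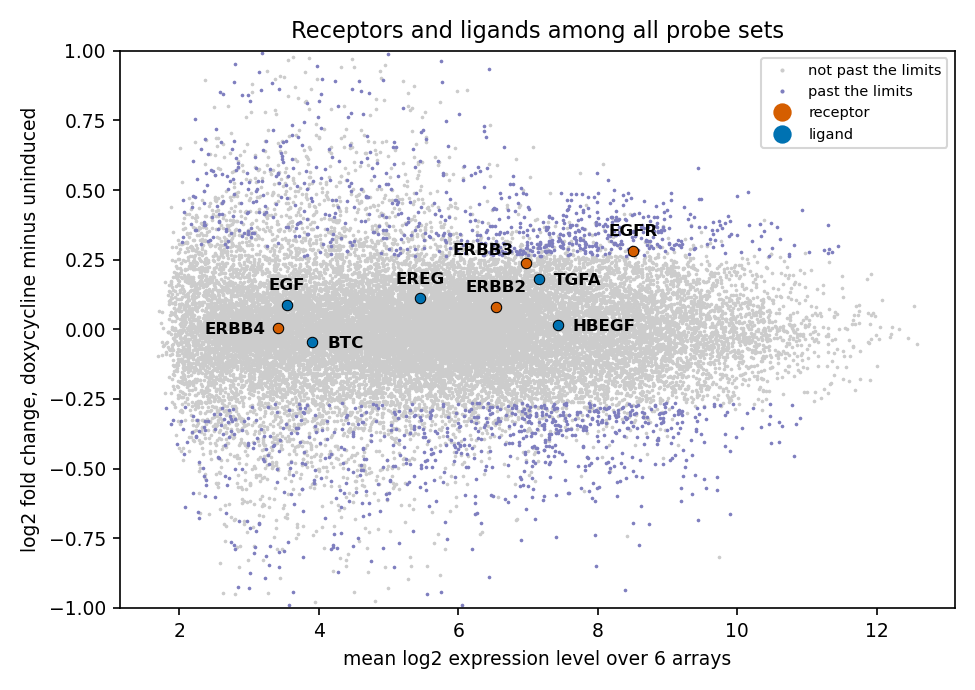
Log2 fold change (vertical axis, from -1 to 1, beyond which 54 probe sets are not drawn) against the mean log2 level over 6 arrays (horizontal axis) of all probe sets, with those past the study's limits in violet, receptors in orange and ligands in blue. EGFR lies among the raised probe sets past the limits, ERBB3 just under them, and the other members in the main body of the cloud.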

How the data were processed

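The authors deposited log2 expression levels, 1 per Ensembl gene identifier and array, for 26445 probe sets. Per the labels, the levels were made with RMA (robust multi-array average: background correction, quantile normalisation and summary of the probes). The genome build and annotation version are not given in the sources used here. The median was 5.66 on each of the 6 arrays, and no further normalisation was applied. Detection calls were not used here, and 3 arrays per group limit the precision.

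Groups and experiment numbers came from the sample labels. Each probe set was tested with limma 3.58.1 in R 4.3.3 (lmFit and eBayes, two-sided, doxycycline minus uninduced), with the experiment as a block, as in the paired test of the study. Adjustment for multiple tests followed Benjamini-Hochberg and covered the whole table. The methods' t-test was an alternative. No per-sample column was left unused. Members were paired with identifiers by the rule that chose them, and promoters were read from RefSeq (GRCh38.p14) by symbol for 9 of the 10 genes, ERBB3 being the exception. All members are named in the text. The members and the lists of further pathway genes and cell type markers were chosen with earlier results of these data known. Those lists were not analysed, since no table used here pairs their symbols with the identifiers.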

Additional observations from a re-analysis of the deposited data

How the results depend on the processing

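Of the 9 genes, 1 passed the study's limits, and none (0) did with no replicate block, with a fold change minimum of 1.5, or with experiment 1, 2 or 3 left out (0 in each case). With no fold change minimum 2 passed, EGFR and ERBB3. The log2 fold change of EGFR kept its direction in all 11 refits. It could not turn where only the test or the probe sets kept were changed, since the estimate stays the same. Nor could it turn with an experiment left out, since EGFR rose in each experiment. EGFR passed the limits in 7 of the 11 refits. It did not with no replicate block (0.28, adjusted p = 0.50 from limma) or with an experiment left out (0.27 to 0.31). The adjusted p of EGFR was between 0.17 and 0.62 over these refits. The further quantile normalisation and the median centring could not alter it, since the deposited levels already share 1 distribution. In the methods' t-test EGFR passed the limits and ERBB3 did not, and 0 of the 9 genes passed after Benjamini-Hochberg adjustment. With an experiment left out, log2 fold changes turned direction for BTC (-0.090 to 0.020, above 0 without experiment 1), EREG (-0.004 to 0.24, below 0 without experiment 2), HBEGF (-0.046 to 0.050, below 0 without experiment 2) and ERBB4 (-0.046 to 0.053, below 0 without experiment 3). None of these 4 genes passed the limits in any refit. The differences of each had opposite signs in different experiments, so their mean turned when 1 experiment was left out. Why the experiments differed was not tested. Of all probe sets, 1543 passed the limits with the block and 1050 with no replicate block. A fold change minimum of 1.5 gave 238, the methods' t-test 577, and leaving out an experiment 986 to 1344, with 994 without experiment 2 and 986 without experiment 3. The mean levels did not move with centring.

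Deviations from the group means correlated between arrays of the same experiment with an r of 0.039, 0.049 and 0.13. Every array but the uninduced one of experiment 1 correlated best with its own number, so the values only hint at a pairing, and the block rests on the study's paired test. The settings planned for the other pathway genes were not run, because their identifiers could not be named. Dim signal limits ERBB4, EGF and BTC most.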
